A study of Mus musculus with 2 samples.

Results

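The regions described here are stretches of chromatin called as enriched for H3K4me1, monomethylation of histone H3 at lysine 4, in and around 3 transcription factor genes, Bach2, Bcl6 and Prdm1, in mouse pre-B cells. They were chosen by position: every called region that overlapped one of 3 windows of the mouse build mm9, chr4:32150000-32750000 for Bach2, chr16:23900000-24350000 for Bcl6 and the gene-poor stretch upstream of it, and chr10:44080000-44330000 for Prdm1. The windows held 34, 29 and 16 regions, 79 of the 48130 in the whole list. Pre-B cells are bone marrow precursors that carry a heavy chain and have yet to rearrange a light chain. They came from B6 mice of genotype RAG1-/-, which cannot rearrange antigen receptor genes, with an already rearranged IgM transgene that supplies the heavy chain, and the animals were 6 to 14 weeks old and of both sexes. The 2 libraries, 1 H3K4me1 immunoprecipitate and 1 input made without antibody, came from cells of this same genotype, and how many animals contributed to each is not stated in the labels. The H3K4me1 library held 50945360 sequence tags, of which 15701950 (30.82%) fell in called regions, per the file header. With 1 library per group there is no spread between replicates, no test of a difference and no p-value, and the labelled cell type could not be checked against marker genes because no expression was measured.

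H3K4me1 marks enhancers, both active and poised, and the flanks of active promoters, where it usually gives way to trimethylation close to the start site. Bach2 and Bcl6 are transcriptional repressors with a BTB domain that act before the plasma cell stage. Bach2 binds DNA with Maf partners through a basic leucine zipper, acts at the pre-B cell stage and in mature B cells, and represses Prdm1. Bcl6 is a zinc finger repressor needed for germinal centre B cells, protects pre-B cells from DNA damage responses during light-chain rearrangement, and also represses Prdm1. Prdm1, also called Blimp-1, is the zinc finger repressor that drives plasma cell differentiation and shuts down much of the B cell programme.

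The promoter sequences that RefSeq gives for these genes are shown because the regions are named after them and because CpG-rich and CpG-poor start sites differ in how H3K4 methylation lies around them. All 3 genes matched the RefSeq table of build GRCm38.p6, with 1 start site each for Bach2 and Prdm1 and 2 for Bcl6. The build differs from mm9, so none of these sequences was placed against the regions. Each is 300 bases long, 5′ to 3′ on the strand of the gene, and capitals mark CpG dinucleotides.
Bach2, chromosome 4, plus strand: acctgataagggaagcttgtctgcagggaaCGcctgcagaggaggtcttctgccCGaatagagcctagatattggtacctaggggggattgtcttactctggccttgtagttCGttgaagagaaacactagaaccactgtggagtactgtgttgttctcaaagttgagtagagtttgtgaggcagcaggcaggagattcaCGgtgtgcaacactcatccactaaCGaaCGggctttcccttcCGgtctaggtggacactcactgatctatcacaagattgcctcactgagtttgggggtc
Bcl6 start site 1, chromosome 16, minus strand: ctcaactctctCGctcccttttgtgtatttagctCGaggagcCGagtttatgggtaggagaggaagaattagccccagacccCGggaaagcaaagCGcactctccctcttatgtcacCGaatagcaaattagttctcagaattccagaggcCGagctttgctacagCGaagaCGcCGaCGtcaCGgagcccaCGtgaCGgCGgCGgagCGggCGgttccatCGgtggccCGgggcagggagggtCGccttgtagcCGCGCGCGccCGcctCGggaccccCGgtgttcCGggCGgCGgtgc
Bcl6 start site 2, chromosome 16, minus strand: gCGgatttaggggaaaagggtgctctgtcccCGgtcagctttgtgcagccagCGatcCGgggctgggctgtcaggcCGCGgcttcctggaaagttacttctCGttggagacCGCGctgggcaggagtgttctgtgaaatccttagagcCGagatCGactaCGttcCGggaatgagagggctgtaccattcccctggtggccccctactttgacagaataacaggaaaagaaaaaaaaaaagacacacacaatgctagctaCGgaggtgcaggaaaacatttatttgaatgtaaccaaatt
Prdm1, chromosome 10, minus strand: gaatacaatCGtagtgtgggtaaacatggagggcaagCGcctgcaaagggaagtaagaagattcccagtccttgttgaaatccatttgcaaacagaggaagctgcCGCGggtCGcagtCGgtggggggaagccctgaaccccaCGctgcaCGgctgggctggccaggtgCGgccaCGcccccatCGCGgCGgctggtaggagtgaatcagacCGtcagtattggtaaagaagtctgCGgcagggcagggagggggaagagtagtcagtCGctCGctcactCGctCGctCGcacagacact
The Bach2 promoter held 7 CpG dinucleotides, equal to the median of 7 over 32851 RefSeq promoters. The first Bcl6 promoter held 31, a number that 10.6% of all promoters reached. The second Bcl6 promoter held 14 and the Prdm1 promoter 20, numbers reached by 36.3% and 26.5% of all promoters. The GC content was 50.3% for Bach2, 62.7% and 51.7% for Bcl6 and 59.7% for Prdm1, beside a median of 52.7%. Exact matches were searched on both strands for TGAGTCA, the core of elements that Bach2 binds with Maf proteins, for TTCCTAGAA, a site of Bcl6, and for AAAGTGAAA, part of the sites of Prdm1. None of the 4 promoters held any of these letters, and 5.20%, 0.411% and 0.594% of all promoters did. CACGTG, an E-box that reads the same on both strands, occurred once in the first Bcl6 promoter and in 7.15% of all promoters.

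With the window ends used, the 3 windows were covered by H3K4me1 regions to nearly the same extent, but the layout differed. Regions covered 17.5% of the Bach2 window, 16.6% of the Bcl6 window and 17.3% of the Prdm1 window, against 4.49% of the span of the 19 autosomes. Widening the windows by 100 kb on each side gave 14.7% at Bach2, 13.3% at Bcl6 and 18.0% at Prdm1. At Bach2, 74.9% of the covered bases lay in 1 block when regions up to 12500 bases apart were joined. With a joining gap of 5 kb, the leading block held 45.6 of the 105.0 covered kb. At Bcl6 the covered bases were spread over many regions, none of 10 kb or more. At Prdm1 they lay in separate groups, the largest of which ran out of the window. The windows around the repressors of the pre-B and mature B stages and around the plasma cell factor thus all held H3K4me1 regions. Holding a region is common: of adjoining stretches of 600, 450 and 250 kb over the genome, 27.0%, 31.7% and 40.6% held none. No region was assigned to the genes themselves.

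**Figure D1:**
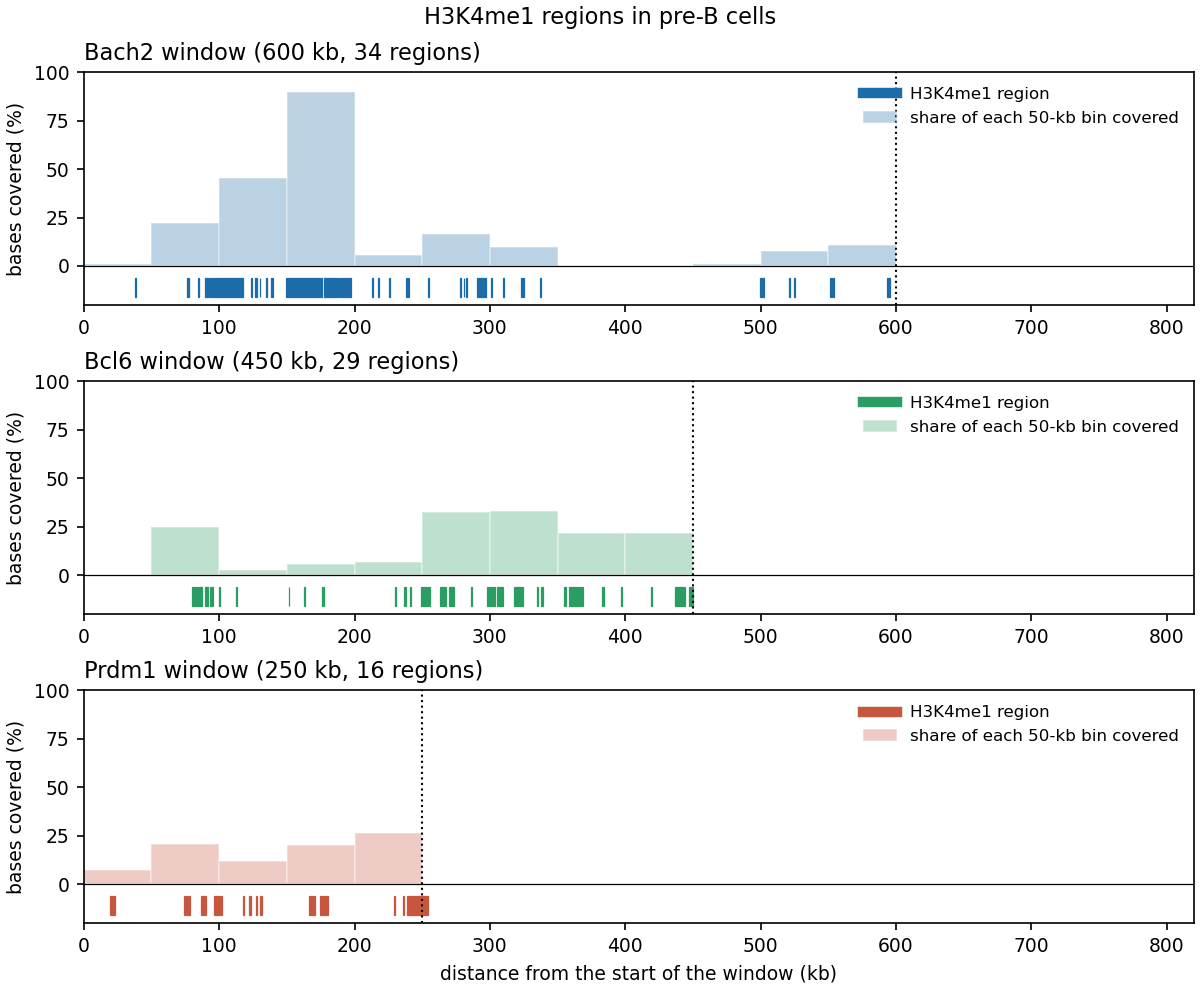
H3K4me1 regions (solid boxes) and the percentage of bases covered in bins of 50 kb (pale bars) along the Bach2, Bcl6 and Prdm1 windows, plotted as kb from the start of each window. Dotted lines show where each window ends. One bin of the Bach2 window is covered to 89.7%, the highest Bcl6 bin to 33.3% and the highest Prdm1 bin to 26.2%.

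The Bach2 window was marked most heavily in its first part. The longest region, chr4:32299227-32325742, spanned 26.5 kb, and only 39 of the 48130 regions in the list were as long or longer. The second, chr4:32243543-32267276, spanned 23.7 kb, a length that 65 regions reached. Both are unusually broad for this list, in which 127 regions reached 20 kb. Directly after the longest region came chr4:32327434-32339628 with 12.2 kb and chr4:32340261-32347171 with 6.91 kb, separated by gaps of 1691 and 632 bases. The fifth in length, chr4:32440707-32446955 with 6.25 kb, stood apart from these.

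Regions no more than 12500 bases apart were joined into domains. The leading Bach2 domain ran from 32226156 to 32347171 on chromosome 4. It joined 13 regions, spanned 121.0 kb, was covered to 64.9% and held 74.9% of the covered bases of the window. Among all 20379 domains of the list it ranked 34 by covered bases, with 78.6 kb. The bin from 32300001 to 32350000, inside this domain save for its end, was covered to 89.7%, and the bin before it to 45.2%. After the domain the marking became sparse and most regions were short. From 32363228 to 32488067, 14 regions covered 16.2 kb in all, and 8 of them had the shortest length in the list, 501 bases, which is a single search window of the caller. Then followed a region-free stretch of 161.5 kb (32488068 to 32649581), so that the bins from 32500001 to 32550000 and from 32550001 to 32600000 were covered to 0%. The other long gaps were 38.9 kb (32704246 to 32743155) and 37.4 kb (32188768 to 32226155). The first region of the window, chr4:32188131-32188767, was 637 bases long, and the last, chr4:32743156-32745830, was 2675 bases long. The 6 regions after the region-free stretch were between 501 and 2985 bases long.

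The Bcl6 window held no region of 10 kb or more. Its longest regions were nearly equal in length: chr16:24258740-24266228 with 7489 bases, chr16:24336478-24343965 with 7488 and chr16:23980095-23987430 with 7336. Next came chr16:24217887-24224295 with 6409 bases and chr16:24197621-24203617 with 5997. Together these are the 5 Bcl6 regions of at least 5 kb, 17.2% of the window's regions, against 8.92% of the whole list. The longest one held 10.1% of the summed length of the window's regions, so no single region dominated.

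The first 80.1 kb of the Bcl6 window were free of regions, and the bin from 23900001 to 23950000 was covered to 0%. Marking began with the first region, the 7336-base one that starts at 23980095. It was followed, across gaps of 2038 and 840 bases, by chr16:23989469-23992124 and chr16:23992965-23995230. With 2 short regions after them these formed a domain of 32.9 kb with 13.7 covered kb. A sparse stretch followed, with the window's longest gaps inside the marked part, 52.4 kb (24077686 to 24130078) and 38.3 kb (24012989 to 24051298). Marking resumed at 24130079, and from there to the end of the window the longest gap was 21.6 kb (24297553 to 24319122). In this part, 2 domains lay next to each other, one of 43.2 kb with 7 regions and 16.4 covered kb, and one of 53.4 kb (24185764 to 24239155) with 6 regions and 19.9 covered kb. The second had the most covered bases of the 10 domains in the window, and ranked 1042 of all domains. The bin from 24200001 to 24250000 was covered to 33.3%, the highest in the window, and the one before it to 32.5%. The last region, chr16:24347051-24349753, ended 0.247 kb before the window did.

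The Prdm1 window, the shortest of the 3, held separate groups of regions with long region-free gaps between them. Its longest region, chr10:44318473-44334259, spanned 15.8 kb, which 275 regions of the list reached, and crossed the end of the window by 4.26 kb. Next came chr10:44254773-44260236 with 5464 bases and chr10:44246387-44251107 with 4721. Regions of 3566 and 3553 bases followed, chr10:44099408-44102973, which is also the first in the window, and chr10:44166871-44170423.

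The 16 Prdm1 regions fell into 5 domains. In the one from 44153842 to 44182402, 6 regions covered 12.1 of 28.6 kb, and 3 of the gaps between them were only 620 to 764 bases long. The next, from 44197904 to 44211760, held 4 regions of 501 to 1645 bases over 13.9 kb. The domain from 44246387 to 44260236 consisted of the regions of 4721 and 5464 bases and was covered to 73.5%. The domain with the most covered bases began at 44309001 and ran on to 44362567, past the end of the window. Over its full 53.6 kb it held 7 regions with 34.3 covered kb and ranked 376 of all domains, but only 3 of these regions overlapped the window. The part inside made up 30.3% of the window's covered bases. Without the longest region the covered share of the Prdm1 window was 12.7%, a setting chosen after seeing the data. The longest gaps were 50.9 kb (44102974 to 44153841), 48.8 kb (44260237 to 44309000) and 34.6 kb (44211761 to 44246386). The 5 bins of 50 kb were covered to between 7.13% (44080001 to 44130000) and 26.2% (44280001 to 44330000). No bin was empty, but this depends on where the bins begin, since the gap of 50.9 kb is longer than a bin.

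The Bach2 window had both the longest regions and the largest share of the shortest. The median length was 768.5 bases at Bach2 (interval 501 to 1471, from order statistics at 95%), 1515 at Bcl6 (822 to 3630) and 1814 at Prdm1 (811 to 3566), against 1497 in the whole list. Without regions of the shortest length the medians were 1401.5 at Bach2, 1623 at Bcl6 and 1858 at Prdm1. The medians then lay closer together, with Bach2 still the lowest. Leaving out the shortest regions can only raise a median or leave it, and it took the largest share of regions at Bach2, so this explains nothing. The 3 intervals given above overlap. Of the 34 Bach2 regions, 12 (35.3%) had the shortest length, and so did 4 of 29 (13.8%) at Bcl6 and 1 of 16 (6.25%) at Prdm1, against 14.3% of the list. Regions of at least 10 kb numbered 3 of 34 at Bach2, 0 of 29 at Bcl6 and 1 of 16 at Prdm1, against 2.15% of the list. The 2 longest Bach2 regions held 47.9% of the summed length, beside 20.1% at Bcl6 and 44.7% at Prdm1, where a single region gave most of it. The intervals treat the regions of a window as independent draws, though they are all its calls in 1 library. They measure no spread between replicates.

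**Figure D2:**
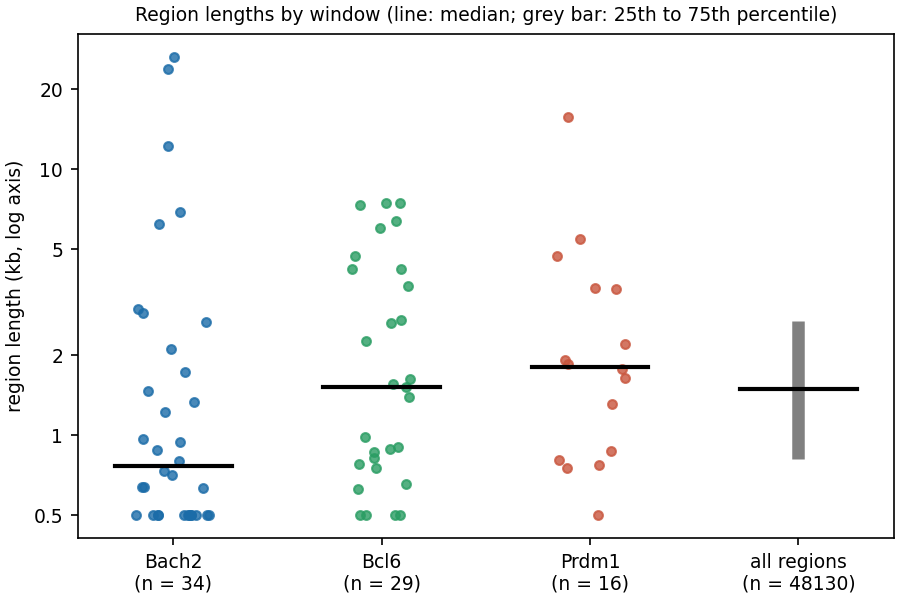
Length of each H3K4me1 region in kb (log axis) in the Bach2, Bcl6 and Prdm1 windows, 1 point per region, with the median as a line. The right column gives the median and the 25th to 75th percentile (grey bar, 813 to 2694 bases) of all 48130 regions. The Bach2 window has both the longest regions, up to 26.5 kb, and the lowest median.

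Region numbers per Mb were set side by side for the 3 windows, for all regions and for those of at least 1000 bases. Bach2 had 56.7 regions per Mb (exact Poisson 95% interval 39.2 to 79.2), Bcl6 64.4 (43.2 to 92.6) and Prdm1 64.0 (36.6 to 103.9). The 19 autosomes had 19.5 per Mb of span. Density was thus 2.90 times that of the autosomes at Bach2 (interval 2.01 to 4.05), 3.30 times at Bcl6 (2.21 to 4.74) and 3.27 times at Prdm1 (1.87 to 5.32). Counting only regions of at least 1000 bases, the ratio came to 1.63 at Bach2, 2.68 at Bcl6 and 3.32 at Prdm1. Bach2 over Prdm1 gave a density ratio of 0.885 (exact interval 0.476 to 1.72) and Bcl6 over Prdm1 gave 1.01 (0.529 to 1.98). Bach2 over Bcl6 gave 0.879 (0.520 to 1.496). These intervals span 1 and are wide, so these counts neither separate the windows nor show that they are alike. Among regions of at least 1000 bases, Bach2 over Prdm1 came to 0.492, Bach2 over Bcl6 to 0.609 and Bcl6 over Prdm1 to 0.808. These ratios lie further from 1 but rest on only 13 regions at Bach2, 16 at Bcl6 and 11 at Prdm1. No interval was computed for them, and each lies inside the interval of its all-region ratio, so they do not separate the windows either. Regions cluster along the genome, so the intervals given here are too narrow.

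The median gap between neighbours was 6.16 kb at Bach2, 7.66 kb at Bcl6 and 3.78 kb at Prdm1, against 8.87 kb in the whole list. Of the gaps between neighbours, 24 of 33 at Bach2 (72.7%), 19 of 28 at Bcl6 (67.9%) and 11 of 15 at Prdm1 (73.3%) were no longer than 12500 bases, against 57.7% in the list. Gaps under 2.5 kb made up 10 of the 33 at Bach2, 7 of 28 at Bcl6 and 5 of 15 at Prdm1. A gap is a stretch without a called region, and the signal inside gaps was not analysed here. The share of such short gaps in the whole list was not analysed here, so these counts rank nothing.

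To set the windows beside the rest of the genome, adjoining tiles of the same length were laid over the autosomes and chromosome X. Of 4260 tiles of 600 kb, 4.13% were covered at least as much as the Bach2 window and 7.91% held at least as many regions. Of 5683 tiles of 450 kb, 5.72% reached the coverage of the Bcl6 window and 5.65% its number of regions. Of 10237 tiles of 250 kb, 6.29% reached the coverage of the Prdm1 window and 8.12% its number of regions. The coverage of 17.5% at Bach2 stood against a median tile of 1.78%, 16.6% at Bcl6 against 1.42%, and 17.3% at Prdm1 against 0.898%. Tiles at or above each window numbered from 176 (coverage, 600 kb) to 831 (regions, 250 kb), so many other stretches of the genome were marked as densely. Tiles include gene-free stretches, and 27.0%, 31.7% and 40.6% of the tiles of these lengths held no region.

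**Figure D3:**
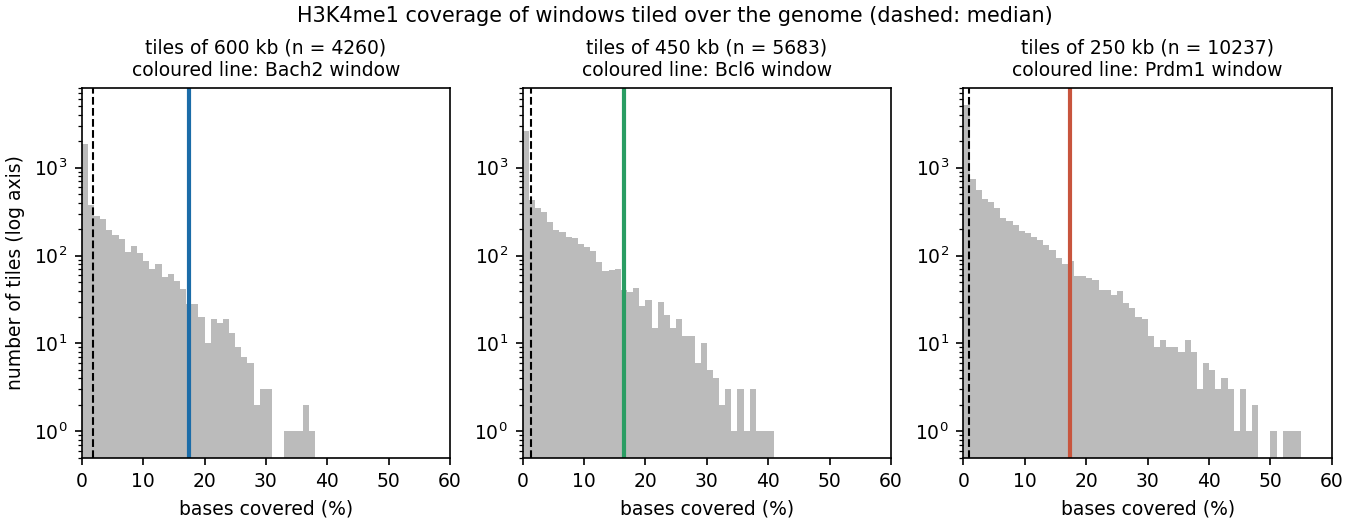
Number of tiles (log axis) by the percentage of their bases covered by H3K4me1 regions, for tiles of the length of the Bach2 (600 kb), Bcl6 (450 kb) and Prdm1 (250 kb) windows. Coloured lines give the windows, at 17.5%, 16.6% and 17.3%, and dashed lines the median tiles, at 1.78%, 1.42% and 0.898%.

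In the RefSeq gene order of GRCm38.p6, the nearest protein-coding genes are Map3k7 and Gja10 on the sides of Bach2, Rtp2 and Lpp on those of Bcl6, and Atg5 and Prep on those of Prdm1. Which regions lie in these genes or their introns was not analysed here, because gene positions on mm9 were not used. The regions are therefore given by position only and none is assigned to a promoter, an exon or a target gene.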

How the data were processed

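H3K4me1 ChIP-seq was done on pre-B cells, with 1 immunoprecipitated and 1 input library. Per the labels' protocols, 1 to 10 ng of DNA went into each library, which was amplified over 18 cycles and read as single ends of 100 bases. The tools were HOMER 4.7 and Bowtie 0.12.9, and the build was mm9, per the submitters' processing notes. Per the file headers, the authors called regions with findPeaks in histone style against input, from windows of 500 bases with at least 26 tags and 4 times the input, and joined them. Region ends thus follow these thresholds, and the shortest length is 501 bases. The deposited score is 1 for every region and carries no signal, so regions could not be ranked by strength. Start and end positions are the other deposited values used, and positions are printed counting from 1.

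Regions overlapping each window by at least 1 base were taken, and covered bases were cut at the window ends. Domains, tiles and clipped coverage were tested on simulated data with known answers. The regions named are the 5 longest, the first and last, the 3 longest gaps, the leading domain and the extreme 50-kb bins, plus neighbours of these in describing a stretch, chosen after their values were seen. Members and lists were chosen with earlier results of these data known. Planned results on gene positions and pathway genes were not run, since no mm9 annotation was used, and numbers in region names serve only to describe the order of the list, because the file does not say what they order. Python 3.11.15, numpy 2.4.6, pandas 2.3.3, scipy 1.17.1 and matplotlib 3.10.9 were used.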

Additional observations from a re-analysis of the deposited data

How the results depend on the processing

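Region numbers were held to within 1.5 times the main number, leading domains to the same value, and other values to the main value's counting interval, which for covered shares counts single bases and is very narrow. By these bounds, of 60 alternative values for 21 results, 28 stayed, 26 moved, many of them by little, and 6 crossed a ratio of 1. Leaving out the longest region and using the same chromosome's density were added after seeing the data. Regions of at least 1000 bases numbered 13 at Bach2 and 16 at Bcl6, and regions above the list's median length numbered 10 at Bach2, 15 at Bcl6 and 10 at Prdm1, fewer by construction. The density over the autosomes was 1.63 at Bach2, 2.68 at Bcl6 and 3.32 at Prdm1 with that minimum of 1000 bases. The covered share with windows widened by 100 kb on each side, narrowed by 50 kb, limited to regions of at least 1000 bases and without the longest region was 14.7%, 19.8%, 15.3% and 13.1% at Bach2. In the same order it was 13.3%, 18.2%, 14.5% and 14.9% at Bcl6, and 18.0%, 17.7%, 15.8% and 12.7% at Prdm1. Among tiles of the same chromosome, 3.16% reached Bach2, 8.10% Bcl6 and 7.10% Prdm1. The leading domain held 45.6 covered kb at Bach2, 12.8 at Bcl6 and 18.4 at Prdm1 with a joining gap of 5 kb. At that gap the leading Bach2 domain no longer held most of the 105.0 covered kb of its window. With a gap of 25 kb it held 94.7 kb at Bach2 and 58.1 kb at Bcl6. The density ratio of Bcl6 over Prdm1 (main 1.01) was 0.714 in widened windows, 0.929 in narrowed ones, 0.808 for regions of at least 1000 bases and 0.957 by covered share. By covered share, Bach2 over Prdm1 was 1.01 (main 0.885) and Bach2 over Bcl6 was 1.06 (main 0.879). The order of the 3 windows thus depended on the measure and the window ends. Tags per region were not analysed here, so how close each region came to the calling threshold is not known.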

Other observations

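The deposited list is not in genome order, and its order was looked at after the data had been seen. The header does not state what it follows. Over all 48130 regions of this library, the rank correlation of place with length was -0.97, so long regions tend to come first. Among the 6870 regions of 501 bases, which length cannot order, place was compared with the number in the region's name within each autosome, with rank correlations of 0.92 to 0.97 over the 19 autosomes. The 26.5-kb Bach2 region was at place 31 and the 23.7-kb one at place 82. The 15.8-kb Prdm1 region was at place 281. The Bcl6 region that came earliest in the list, chr16:24336478-24343965 with 7488 bases, was at place 1824. The first 10% of the list held 4 of 34 Bach2 regions, 7 of 29 at Bcl6 and 3 of 16 at Prdm1. The 902-base Bcl6 region chr16:24012087-24012988 stood earliest relative to its length, by 17.7 percentage points of the list. The 2103-base Bach2 region chr4:32473163-32475265 stood latest, by 15.6 points.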
